A study of Mus musculus with 24 samples.

Results

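The genes examined here encode the co-receptors, adaptors and first kinases that carry a signal from Toll-like receptor 4 (TLR4) into the cell. They are Cd14, Ly96, Tirap, Myd88, Ticam1, Ticam2, Irak1, Irak2, Irak4 and Traf6. The 10 genes were chosen by symbol and matched to the Ensembl identifiers of the count table, and each was found there among 54838 genes. All 10 passed the low-count filter that left 13116 genes for testing.

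The data are poly-A RNA counts from SIM-A9, a mouse microglial cell line, in 8 groups of 3 libraries. The groups were a control, LPS, 2 kinds of single-walled carbon nanotube (SWCNT), the calcium dye Fura-2, 2 dyes of membrane voltage and AAV. LPS is bacterial lipopolysaccharide, named in the series' design as the positive control for inflammation. The dyes of membrane voltage were Di-2-ANEPEQ and DiBASC2. AAV is adeno-associated virus, a gene delivery vector. The nanotubes were (GT)6 SWCNT, a name used for tubes coated with short DNA of GT repeats, and COOH SWCNT, which the labels call carboxylated. All cells were moved to 270 uL of medium without serum in a 48-well plate 2 h before the start, and 30 uL of a 10x sample was present for 2 h before RNA was taken. Doses are not given in the sources used here. The dye names vary between the titles, treatment labels and count table, the treatment labels of the DiBASC2 libraries end in digits that differ from one to the next, and titles and replicate numbers were used to group these libraries. SIM-A9 is a single line, and nothing states that the 3 libraries of a group came from separate cultures, so p-values measure the spread between these libraries, which may be technical.

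TLR4 binds LPS together with the secreted protein MD-2, and CD14 hands the LPS molecule to that complex. At the plasma membrane the sorting adaptor TIRAP brings in MyD88, which assembles the kinases IRAK4, IRAK1 and IRAK2 and, through them, the ubiquitin ligase TRAF6, and this arm ends in NF-kB and the inflammatory cytokines. From endosomes the adaptor TRAM recruits TRIF, which leads to interferon genes, and microglia, the resident macrophages of the brain, carry both arms.

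Libraries held between 17364272 and 29259221 counts, and log2 levels of replicates correlated with r between 0.992 and 0.995. The labelled cell type was checked against its markers. Of 12 microglial markers, 11 passed the filter, their summed level was between 1604 and 1851 CPM (counts rescaled to a common library total) in every library. Csf1r (516 CPM as a mean over all libraries), Tyrobp (432) and Spi1 (311), which other macrophages express too, made up most of that sum. The more microglia-specific Tmem119 (3.79 CPM) and P2ry12 (2.28 CPM) were low, as was Aif1 (4.09 CPM), and Sall1 had at most 2 counts in any library. Lists of 4 markers each for astrocytes, neurons, oligodendrocytes, endothelial cells and fibroblasts summed to at most 1.03 CPM in every library, and Cldn5, Dcn, Mog and Syt1 were at 0 in every library. In bulk RNA, fewer cells with a transcript and less of it per cell cannot be told apart.

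Promoter sequences are shown for the 4 changed genes with an entry in the RefSeq table used here (build GRCm38.p6), to set their letters beside their different responses below. The capitals mark matches to short motifs. Each is given 5′ to 3′ on the gene's strand and precedes the RefSeq start of a transcript, without bases that GENCODE M21 puts in an exon of the gene: Irak2 at chr6:113638217-113638466 (plus strand), Ticam1 at chr17:56276787-56277017 (minus strand), Myd88 at chr9:119340042-119340268 (minus strand) and Traf6 at chr2:101678170-101678419 (plus strand). In Myd88 the capitals mark an interferon-response pair, which is GAAA, any 2 bases and GAAA again, and in Ticam1 and Traf6 they mark GAGGAAG, a core bound by the myeloid factor PU.1. Irak2 has no capitals, since no motif searched matched there. The Myd88 window lies before the shorter GENCODE transcripts but within the first intron of 1 of its 3 transcripts, whose upstream start is the gene end given for Myd88 below.
Irak2: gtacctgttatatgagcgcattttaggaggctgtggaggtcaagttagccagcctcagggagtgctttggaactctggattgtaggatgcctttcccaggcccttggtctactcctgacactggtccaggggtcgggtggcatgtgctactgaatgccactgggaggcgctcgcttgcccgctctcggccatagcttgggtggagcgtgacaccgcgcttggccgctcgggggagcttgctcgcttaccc
Ticam1: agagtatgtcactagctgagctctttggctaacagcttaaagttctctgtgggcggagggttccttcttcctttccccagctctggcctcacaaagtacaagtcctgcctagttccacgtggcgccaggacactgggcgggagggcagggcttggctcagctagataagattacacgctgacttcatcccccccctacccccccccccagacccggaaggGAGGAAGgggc
Myd88: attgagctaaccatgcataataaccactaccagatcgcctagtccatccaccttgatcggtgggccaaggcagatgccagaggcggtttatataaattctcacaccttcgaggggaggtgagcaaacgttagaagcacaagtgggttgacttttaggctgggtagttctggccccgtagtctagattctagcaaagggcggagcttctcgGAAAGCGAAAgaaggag
Traf6: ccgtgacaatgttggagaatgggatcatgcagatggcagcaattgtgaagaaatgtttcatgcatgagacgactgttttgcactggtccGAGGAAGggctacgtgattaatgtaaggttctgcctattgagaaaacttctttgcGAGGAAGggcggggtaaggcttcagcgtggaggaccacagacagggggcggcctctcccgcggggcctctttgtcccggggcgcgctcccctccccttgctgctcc

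Both strands of the 250 bases before each RefSeq start were searched, with any overlap between motifs allowed. The table held windows for 7 of the 10 genes; Cd14, Ly96 and Ticam2 had none. The whole table held 32851 windows of 27025 genes. The NF-kB consensus motif was found in 0 of the 7 genes, and in 4.46% of all genes in the table (3.9% of windows). The AP-1 motif TGANTCA was found in 0 of the 7 and in 7.82% of all genes (6.75% of windows). The interferon-response pair was found in 1 of the 7 (Myd88, 40 bases before the RefSeq start used) and in 3.46% of all genes (2.98% of windows). GAGGAAG was found in 2 of the 7, once in Ticam1 and at 2 places in Traf6, and in 12% of all genes (10.6% of windows). A match describes letters in this window only.

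In control the 10 genes differed widely in level. To compare genes, CPM were divided by the length of a gene's exons in kilobases, and each value below is a mean over 3 control libraries with its SD. Cd14 stood highest at 170 ± 6.52 CPM per kilobase, above 98.2% of the genes tested. Myd88 followed at 42.6 ± 0.474, then Irak1 at 26.5 ± 0.660 and Irak2 at 12.8 ± 0.0643 CPM per kilobase. Ticam1 was at 6.16 ± 0.883, below the receptor gene Tlr4 at 7.50 ± 0.185 CPM per kilobase, and neither of these overlapped its neighbours in the order. Traf6 (4.76), Irak4 (4.71) and Ly96 (4.70 CPM per kilobase) overlapped each other in their library values, so their order is not resolved. Tirap had 3.82 ± 0.300 and Ticam2, the lowest, 0.913 ± 0.0562 CPM per kilobase. The mRNAs of the endosomal adaptors, Ticam1 (TRIF) and Ticam2 (TRAM), were thus both below Myd88, as was Tirap, which works with MyD88. Ticam1 amounted to 0.145 ± 0.0193 of Myd88 per length.

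**Figure D1:**
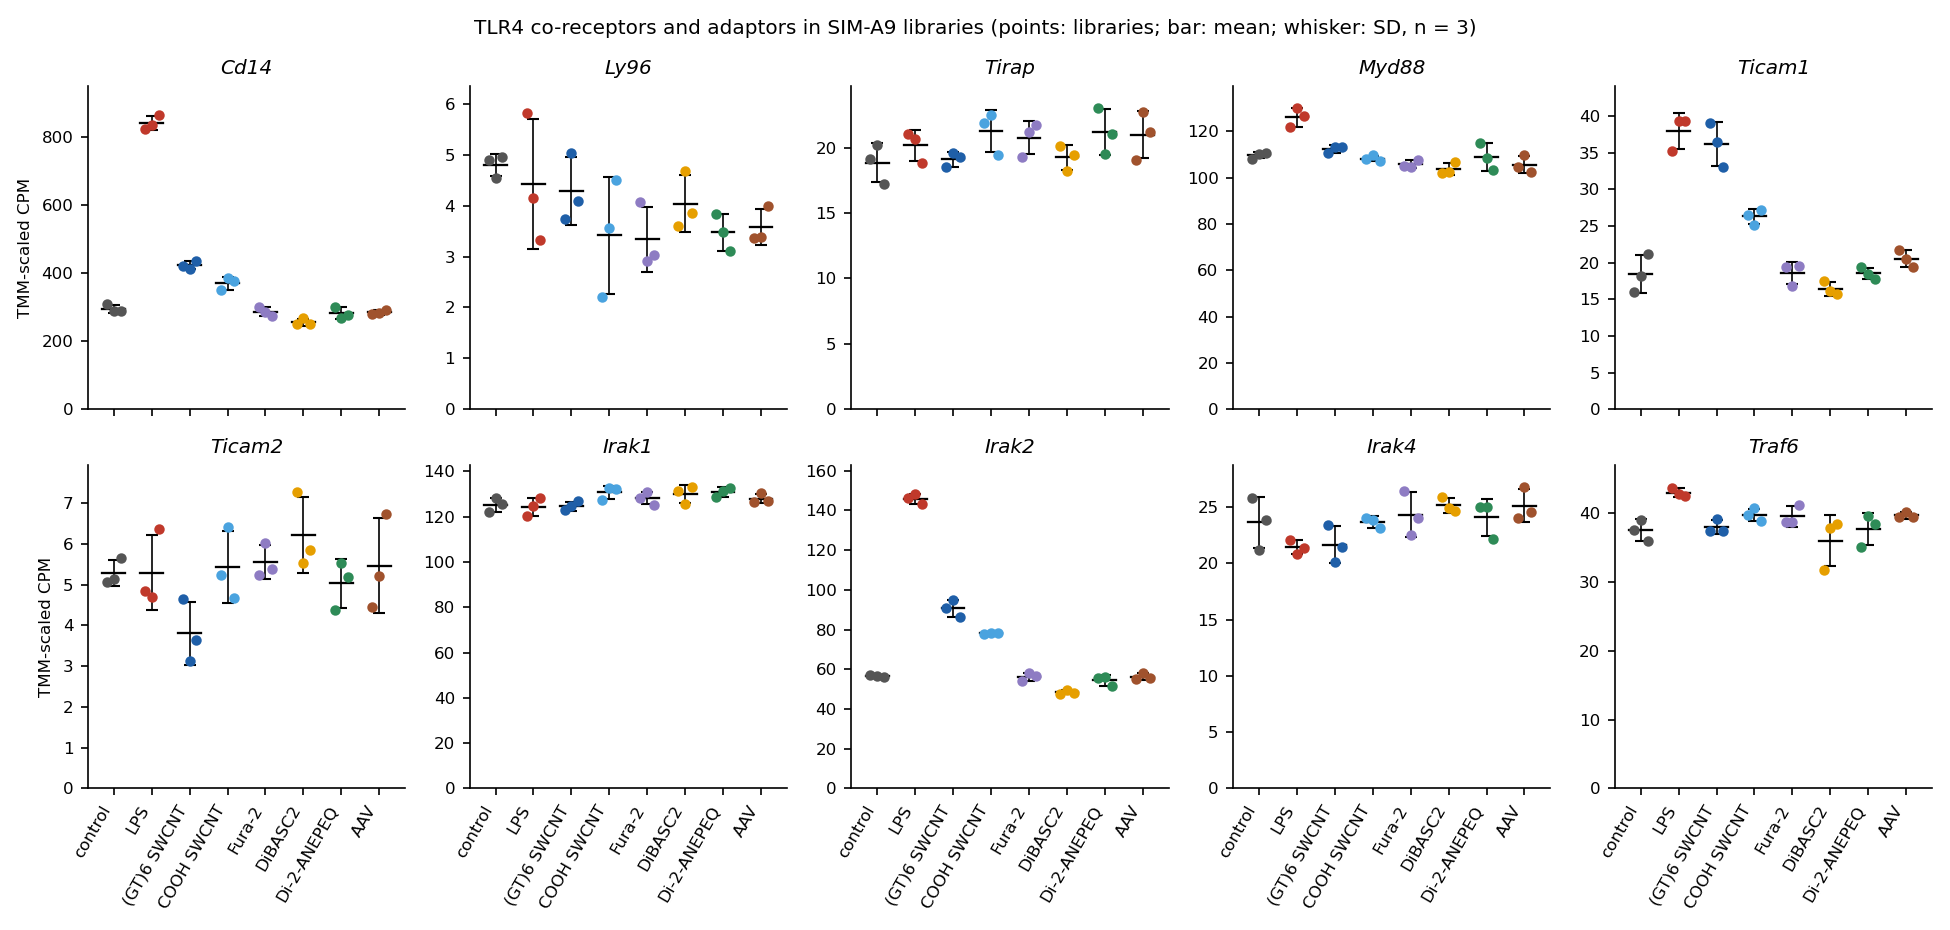
Level of each gene in TMM-scaled CPM (vertical axes, each starting at 0) in the 8 groups, with 1 point per library, a bar at the mean and a whisker of 1 SD (n = 3). Cd14 is at 825 to 866 in LPS and at 288 to 308 in control, and Irak1 lies between 120.3 and 133 in all 24 libraries.

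Across the 7 treatments, 5 of the 10 genes were called in at least 1 comparison with control and 5 in none (edgeR's quasi-likelihood test over all 13116 genes, two-sided, with calls made where the Benjamini-Hochberg adjusted p was under 0.05). Cd14 and Irak2 were called in 4 treatments each, Ticam1 in 3, and Myd88 and Traf6 in LPS alone. Ly96, Tirap, Ticam2, Irak1 and Irak4 were called in none of the 7. The share of all genes called in at least 1 of the 7 was not worked out, so 5 of 10 has no such share beside it. With LPS 5 genes were called higher and 0 lower, where 28.3% of all genes tested were called (13.8% higher). With (GT)6 SWCNT 3 were higher and 0 lower beside 20.4% of all genes (9.90% higher), and with COOH SWCNT 3 higher and 0 lower beside 20.0% (9.39% higher). With DiBASC2 0 were higher and 2 lower beside 5.47% of all genes (3.64% lower). The 7 comparisons share their control libraries. The median log2 fold change over the 10 genes was 0.14 with LPS, 0.02 and 0.07 with the (GT)6 and COOH nanotubes and -0.07 with DiBASC2, and that over all genes tested lay between -0.02 and 0.00 in these 4.

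With Fura-2, Di-2-ANEPEQ and AAV edgeR called 0 of the 10 genes, where 0.252%, 3.08% and 5.00% of all genes were called. At an unadjusted p under 0.05, edgeR gave 1 gene in Fura-2 (Ly96), 2 in Di-2-ANEPEQ (Ly96 and Tirap) and 1 in AAV (Ly96). The share of all genes under that unadjusted threshold was not worked out, and these comparisons share their control libraries. DESeq2 called 0 of the 10 genes in each. Cd14 differed from control by -0.04 (95% interval -0.13 to 0.05) on the log2 scale in Fura-2, by -0.06 (-0.15 to 0.03) in Di-2-ANEPEQ and by -0.05 (-0.14 to 0.04) in AAV. For Irak2 the log2 differences were -0.01 (-0.10 to 0.08), -0.06 (-0.15 to 0.03) and -0.01 (-0.10 to 0.08) in the same order. For Ticam1 they were 0.02 (-0.16 to 0.19), 0.01 (-0.16 to 0.18) and 0.16 (-0.01 to 0.32).

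**Figure D2:**
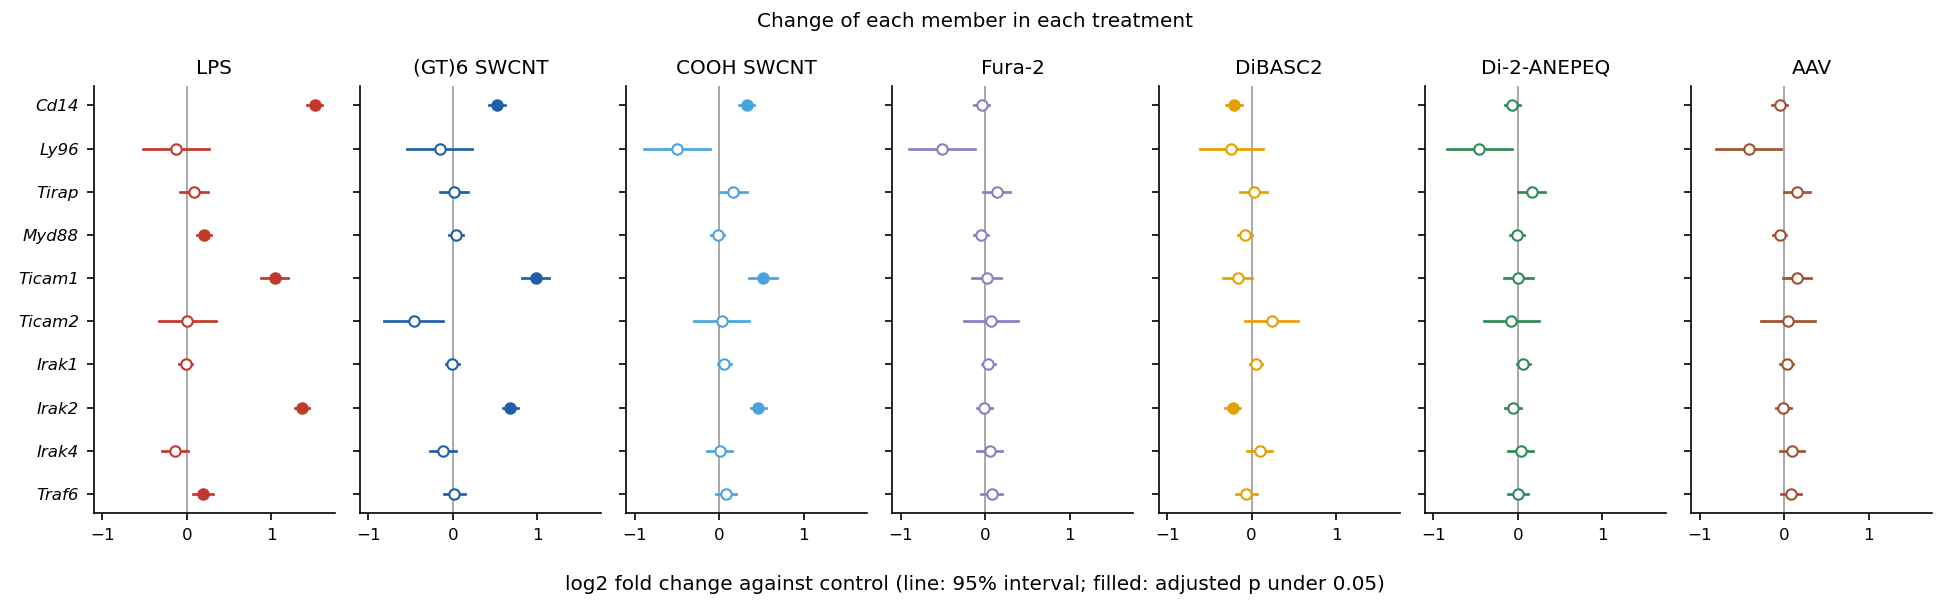
Log2 fold change of each gene against control (horizontal axes) in the 7 treatments, with a line for the 95% interval and a filled point where the adjusted p was under 0.05. In LPS 5 points are filled to the right of 0, in each SWCNT group 3, and in DiBASC2 the points of Cd14 and Irak2 are filled to the left of 0.

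Of the co-receptors, Cd14 was called in 4 treatments and Ly96 in 0. Cd14 (ENSMUSG00000051439.6, chr18:36725067-36726798, protein-coding) encodes the surface protein that captures LPS. Its level was 308, 289 and 288 CPM in the control libraries and 825, 835 and 866 CPM with LPS. The groups did not overlap, and the log2 fold change was 1.51 ± 0.04 (SE, n = 3 per group), a 2.85-fold rise (edgeR quasi-likelihood test, adjusted p = 2.8e-26). With (GT)6 SWCNT the libraries were at 422, 414 and 435 CPM and with COOH SWCNT at 349, 384 and 378 CPM, all above the highest control library. These were log2 rises of 0.52 ± 0.04 (adjusted p = 5.8e-12) and 0.33 ± 0.04 (adjusted p = 6e-07) by edgeR's quasi-likelihood test. With DiBASC2 Cd14 was at 249, 267 and 250.1 CPM, below every control library, and it fell by 0.21 ± 0.04 on the log2 scale (edgeR, adjusted p = 0.0025).

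The response of Cd14 was graded among the 3 treatments that raised it. (GT)6 SWCNT stood 0.99 ± 0.04 below LPS on the log2 scale (edgeR, adjusted p = 1.7e-20; 21.6% of all genes were called in this comparison, 11.9% lower), and COOH SWCNT 1.18 ± 0.04 below it (adjusted p = 6.9e-23; 37.8% of all genes, 19.7% lower). (GT)6 SWCNT exceeded COOH SWCNT by 0.19 ± 0.04 (adjusted p = 0.0012; 21.4% of all genes, 11.9% higher and 9.48% lower). The lowest library with (GT)6 SWCNT (414 CPM) lay above the highest with COOH SWCNT (384 CPM).

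The receptor gene itself moved the other way. Tlr4 was at 42.6, 40.6 and 41.9 CPM in control and at 25.97, 21.1 and 21.4 CPM with LPS, where it fell by 0.87 ± 0.07 on the log2 scale (edgeR, adjusted p = 3.1e-13). It also fell by 0.45 ± 0.07 with (GT)6 SWCNT (adjusted p = 1e-06) and by 0.32 ± 0.06 with COOH SWCNT (adjusted p = 0.00034), and it was not called in the other 4 treatments. Per length, control cells held 22.7 ± 0.578 Cd14 for each Tlr4 (SD, n = 3). The ratio was 119 ± 15.2 with LPS, 44.7 ± 0.613 with (GT)6 SWCNT, 35.5 ± 2.25 with COOH SWCNT and 18.9 ± 0.484 with DiBASC2. The 3 libraries of each of these groups lay apart from the control libraries.

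Ly96 (ENSMUSG00000025779.10, chr1:16688051-16709611) encodes MD-2, the subunit of the complex that holds LPS. It was sparse, with 58 to 133 counts per library. Its levels were 4.89, 4.55 and 4.97 CPM in control, 5.81, 4.15 and 3.32 CPM with LPS and 2.20, 3.56 and 4.50 CPM with COOH SWCNT. The LPS libraries spread across the control libraries, whereas the COOH SWCNT libraries all lay below them. The log2 difference was -0.13 with LPS (95% interval -0.52 to 0.26) and -0.50 with COOH SWCNT (-0.89 to -0.10; edgeR, adjusted p = 0.067). Ly96 was nominally below control in all 7 treatments, with log2 differences from -0.51 to -0.13 that share the same 3 control libraries, and with 1 library left out the LPS value ranged from -0.35 to 0.06. In COOH SWCNT it was called lower without COOH SWCNT replicate 3 (-0.75, adjusted p = 0.010), and without the low-count filter or with only the 2 groups fitted (adjusted p = 0.020 and 0.0498).

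Among the 4 adaptors, Ticam1 was called in 3 treatments, Myd88 in 1 and Tirap and Ticam2 in 0. Ticam1 (ENSMUSG00000047123.8, chr17:56269319-56276786) encodes TRIF, the adaptor of the interferon arm. Control libraries were at 15.9, 18.2 and 21.2 CPM and LPS libraries at 35.2, 39.4 and 39.3 CPM. With (GT)6 SWCNT the values were 39.1, 36.4 and 33.04 CPM, which overlap the LPS values, and with COOH SWCNT they were 26.5, 25.1 and 27.2 CPM, between control and LPS. The log2 rises over control were 1.04 ± 0.08 for LPS (adjusted p = 1.5e-13), 0.98 ± 0.08 for (GT)6 SWCNT (2.1e-12) and 0.51 ± 0.08 for COOH SWCNT (9.8e-06), all by edgeR's quasi-likelihood test.

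Directly compared, (GT)6 SWCNT and LPS were not called different in Ticam1, with a log2 difference of -0.06 ± 0.07 and a 95% interval from -0.21 to 0.08 (edgeR, adjusted p = 0.61). COOH SWCNT was lower than LPS by 0.53 ± 0.07 (adjusted p = 3.7e-07) and (GT)6 SWCNT exceeded COOH SWCNT by 0.46 ± 0.07 (adjusted p = 1.6e-05). Per length, the ratio of Ticam1 to Myd88 was 0.259 ± 0.00950 with LPS and 0.277 ± 0.0264 with (GT)6 SWCNT (SD, n = 3), against 0.145 ± 0.0193 in control. Whether the change of Ticam1 differs from that of Cd14 between the treatments was not tested.

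Myd88 (ENSMUSG00000032508.8, chr9:119335934-119341411) encodes the adaptor that most Toll-like and interleukin-1 receptors share. It was at 108, 110.1 and 110.5 CPM in control and at 122, 130.0 and 126 CPM with LPS, without overlap. The log2 rise was 0.20 ± 0.04, or 1.15-fold (edgeR, adjusted p = 0.00013). With the nanotubes it was not called, at 0.03 ± 0.04 for (GT)6 SWCNT (95% interval -0.05 to 0.12) and -0.02 ± 0.04 for COOH SWCNT (-0.10 to 0.06). Directly against LPS it was lower by 0.17 ± 0.04 with (GT)6 SWCNT (adjusted p = 0.0017) and by 0.22 ± 0.04 with COOH SWCNT (adjusted p = 2.7e-05). Its exons overlap those of Acaa1a on the other strand by 290 bases, and the handling of strand in counting is not given in the sources used here. Acaa1a was at 83.5 ± 3.80 CPM in control and 84.3 ± 1.19 CPM with LPS (adjusted p = 0.89). Acaa1a was also lower with (GT)6 SWCNT than with LPS, at 75.9 ± 2.48 CPM (log2 -0.15 ± 0.05; edgeR, adjusted p = 0.033), a difference near that of Myd88, and its part in the Myd88 result was not tested. With COOH SWCNT against LPS it was not called (log2 -0.08 ± 0.05, adjusted p = 0.23).

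Tirap and Ticam2 encode the bridging adaptors TIRAP and TRAM, and neither was called against control. Tirap (ENSMUSG00000032041.15, chr9:35184551-35200291) lay between 17.2 and 23.0 CPM in all 24 libraries, with log2 differences from control of 0.01 to 0.17, and without COOH SWCNT replicate 3 it was called higher with COOH SWCNT (0.24, adjusted p = 0.044). Ticam2 (ENSMUSG00000056130.9, chr18:46557291-46574533) had 62 to 194 counts per library. It was at 5.06, 5.15 and 5.66 CPM in control and at 4.64, 3.14 and 3.63 CPM with (GT)6 SWCNT. The groups did not overlap, as was so for 34.3% of all genes tested. The log2 difference was -0.46 ± 0.17 (edgeR, adjusted p = 0.05002, just above the threshold). It was called lower in 6 of 13 alternatives, with log2 differences from -0.64 to -0.32 over all of them.

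The direct comparisons called Ticam2 lower in (GT)6 SWCNT than in LPS, by 0.47 ± 0.17 (edgeR, adjusted p = 0.043), and than in COOH SWCNT, by 0.49 ± 0.17 (adjusted p = 0.030). The first call was lost without (GT)6 SWCNT replicate 2 or 3 or LPS replicate 3 (adjusted p = 0.25, 0.10 and 0.29), and with upper-quartile factors, the replicate block or only the 2 groups fitted (0.059, 0.0566 and 0.057), which makes 6 of 13 alternatives. The second was lost without (GT)6 SWCNT replicate 2 or 3 or COOH SWCNT replicate 1 or 2 (adjusted p = 0.20, 0.080, 0.064 and 0.18). Ticam2 shares 838 exon bases on the same strand with Tmed7, so its counts are uncertain where reads could belong to either gene, and Tmed7 was at 166 ± 5.32 CPM in control and 172 ± 4.57 CPM with (GT)6 SWCNT (adjusted p = 0.47), and was not called in (GT)6 SWCNT against LPS or COOH SWCNT (adjusted p = 0.80 and 0.34).

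Of the kinases, Irak2 changed and its partners did not pass the test. Irak2 (ENSMUSG00000060477.14, chr6:113638467-113695026) encodes a pseudokinase of the receptor complex that sustains late signalling. Control libraries were at 56.9, 56.8 and 56.3 CPM, LPS libraries at 146, 148 and 143 CPM, (GT)6 SWCNT libraries at 91.0, 94.7 and 86.4 CPM, and COOH SWCNT libraries at 77.95, 78.3 and 78.2 CPM. No 2 of these groups overlapped, and the spread within the control and COOH SWCNT groups was under 1 CPM. The log2 rises were 1.36 ± 0.04 with LPS (2.57-fold, adjusted p = 2.1e-25), 0.68 ± 0.04 with (GT)6 SWCNT (1.60-fold, 2.8e-15) and 0.46 ± 0.04 with COOH SWCNT (1.38-fold, 2.6e-10) by edgeR's quasi-likelihood test.

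With DiBASC2 Irak2 was at 47.7, 49.6 and 48.3 CPM, below every other library of the series, and it fell by 0.22 ± 0.05 on the log2 scale against control (edgeR, adjusted p = 0.0014). Between the treatments, Irak2 was lower than in LPS by 0.68 ± 0.04 with (GT)6 SWCNT (adjusted p = 1.7e-16) and by 0.90 ± 0.04 with COOH SWCNT (adjusted p = 4.1e-20). (GT)6 SWCNT exceeded COOH SWCNT by 0.22 ± 0.04 (adjusted p = 0.00021).

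Irak1 (ENSMUSG00000031392.18, chrX:74013914-74023918) encodes the kinase that is degraded once the receptor complex has fired. Its mRNA stayed between 120.3 and 133 CPM in all 24 libraries, and its log2 difference from control was between -0.01 and 0.06 in the 7 treatments. With 2162 to 3801 counts per library, its 95% interval with LPS was -0.09 to 0.07. Per length, Irak2 amounted to 0.484 ± 0.0130 of Irak1 in control and to 1.26 ± 0.0552 with LPS, so that Irak2 passed Irak1 in the order of levels there. The ratio was 0.778 ± 0.0436 with (GT)6 SWCNT, 0.639 ± 0.0128 with COOH SWCNT and 0.399 ± 0.0197 with DiBASC2 (SD, n = 3 each).

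Irak4 (ENSMUSG00000059883.16, chr15:94543643-94581815) encodes the first kinase of the complex and lay between 20.1 and 26.8 CPM. Its log2 difference was -0.14 ± 0.08 with LPS (95% interval -0.29 to 0.02) and between -0.12 and 0.10 in the other treatments. Traf6 (ENSMUSG00000027164.8, chr2:101678429-101701669) encodes the ubiquitin ligase on which the arm converges. Its libraries were at 37.6, 39.02 and 35.9 CPM in control and at 43.7, 42.8 and 42.4 CPM with LPS, without overlap. The log2 rise was 0.19 ± 0.06 (edgeR, adjusted p = 0.012), and without control replicate 3 it was 0.17 (adjusted p = 0.055), no longer called. Traf6 was lower with (GT)6 SWCNT than with LPS by 0.18 ± 0.06 (adjusted p = 0.027). That call was lost without (GT)6 SWCNT replicate 1 or 3 or LPS replicate 1 or 2, with adjusted p from 0.066 to 0.0996, and with upper-quartile factors (0.070) or no low-count filter (0.055).

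Exons of other genes lie on the opposite strand of Tirap (Srpr by 39 bases and Gm39318 by 446), Irak4 (Twf1 by 395) and Irak2 (Gm43963 by 196). Strand is thus uncertain for their counts, as for those of Myd88. Gm43963 was at 0 CPM in control and 0.0525 ± 0.0544 CPM with LPS, and Gm39318 at 0.0503 ± 0.00675 and 0.0337 ± 0.0294 CPM. Srpr was at 142 ± 4.84 CPM in control and was called higher with LPS (155 ± 2.80 CPM), (GT)6 SWCNT (156 ± 5.35) and COOH SWCNT (156 ± 3.42; edgeR, adjusted p = 0.017, 0.014 and 0.019). Twf1 was at 91.6 ± 3.10 CPM in control and 99.8 ± 2.08 CPM with (GT)6 SWCNT, where it was called higher than in control and than in LPS (edgeR, adjusted p = 0.022 and 0.026).

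In the direct comparisons with LPS, 5 of the 10 genes were lower with (GT)6 SWCNT (Cd14, Irak2, Myd88, Traf6 and Ticam2) and 4 with COOH SWCNT (Cd14, Irak2, Ticam1 and Myd88), and 0 were higher in either. Over all genes tested, 21.6% were called in the first comparison (11.9% lower) and 37.8% in the second (19.7% lower), so that 4 of 10 called with COOH SWCNT is near the share of all genes. With upper-quartile factors Irak1 and Irak4 were called higher with COOH SWCNT than with LPS, by 0.12 and 0.20 (edgeR, adjusted p = 0.0072 and 0.033). Between the nanotubes, Cd14, Irak2 and Ticam1 were higher and Ticam2 lower with (GT)6 SWCNT, 4 of 10 in all beside 21.4% of all genes.

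**Figure D3:**
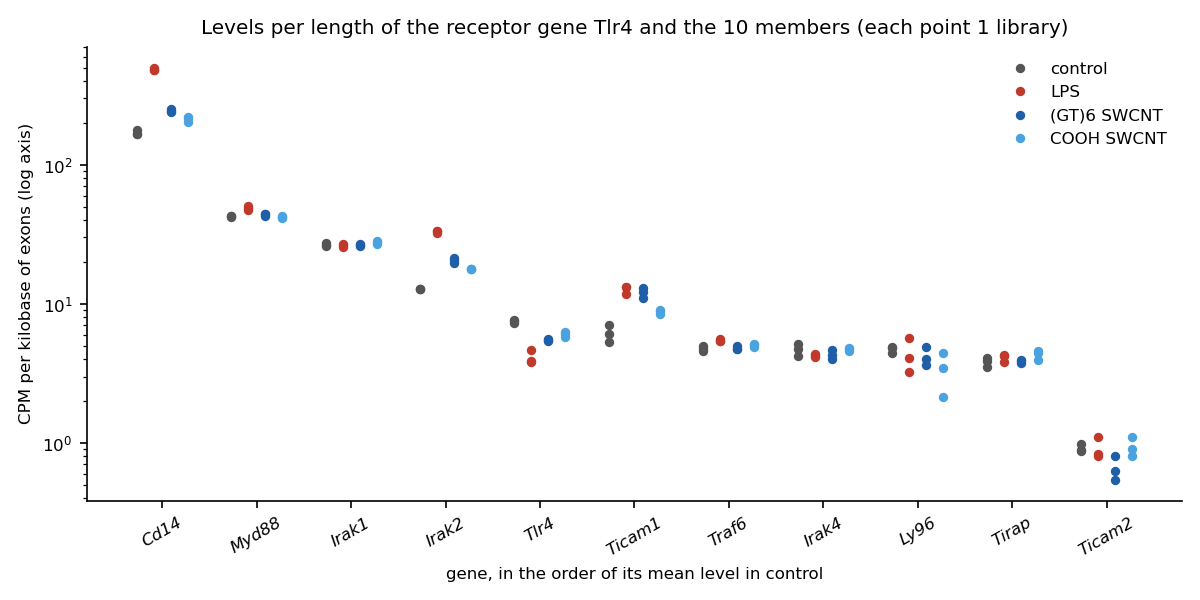
Level of Tlr4 and the 10 genes in CPM per kilobase of exons (vertical log axis), with 1 point per library in 4 groups and genes in the order of their mean level in control. Cd14 is highest in every group, Irak2 rises from 12.8 in control to 33.1 with LPS and passes Irak1 (26.4), and Tlr4 goes from 7.50 to 4.11.

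The genes around these 10 in the pathway were described by 5 lists, chosen with earlier results of these data known. Tnfaip3 is in both the list of inhibitors and that of MyD88-arm targets. As a description, the counts stand beside 28.3% of all genes called with LPS, 20.4% with (GT)6 SWCNT, 20.0% with COOH SWCNT and 5.47% with DiBASC2. The 12 receptor and chaperone genes (11 tested), which fold, carry or accompany TLR4, had 0 higher and 3 lower with LPS: Tlr4, Cnpy4 (a chaperone of the receptor, -0.22 ± 0.08) and the integrin subunit Itgam (-0.17 ± 0.05). These 3 of 11 are near the share of all genes, and the count was 1 without control replicate 1 or without LPS replicate 2. With (GT)6 SWCNT 1 was higher and 1 lower, and with COOH SWCNT 1 was higher and 2 lower. Cd180, a relative of TLR4, was the one that was higher in both, by 0.20 ± 0.04 and 0.18 ± 0.04. The 2 lower with COOH SWCNT were Tlr4 and Ly86 (-0.20 ± 0.05). The list's median log2 fold change was -0.07, -0.04 and -0.05 in these 3 treatments, beside -0.01, -0.02 and 0.00 for all genes tested.

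Of 15 inhibitors of the pathway, 8 were higher and 0 lower with LPS, 6 and 2 with (GT)6 SWCNT, 6 and 1 with COOH SWCNT, and 0 and 2 with DiBASC2 (1 of them without control replicate 1). Their median log2 fold change was 0.17 with LPS. Tnfaip3, the ubiquitin-editing enzyme A20 that removes the chains TRAF6 builds, was higher by 3.19 ± 0.06 with LPS, 0.68 ± 0.06 with (GT)6 SWCNT and 0.69 ± 0.06 with COOH SWCNT, and lower by 0.34 with DiBASC2 (log2 -0.34 ± 0.07; edgeR, adjusted p = 0.00085). Tollip, which holds IRAK1 in check, was lower with DiBASC2 as well (-0.18 ± 0.04). The medians with both nanotubes were 0.04 and 0.05, near those of all genes.

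Of 20 kinases and ubiquitin enzymes downstream of the adaptors (19 tested), 6 were higher and 3 lower with LPS, led by Map3k8 (2.06 ± 0.12), a kinase upstream of ERK, and Ikbke (1.92 ± 0.06), a kinase of the interferon arm. Tab1, a partner of the kinase TAK1, was lower by 0.46 ± 0.06 on the log2 scale (log2 -0.46). With (GT)6 SWCNT 3 were higher and 4 lower, a total of 7 that came to 2 without control replicate 2, 3 without control replicate 3, and 4 without (GT)6 SWCNT replicate 1 or 2. With COOH SWCNT 1 was higher and 2 lower, 3 of 19 beside 20.0% of all genes. The list medians were 0.03, -0.01 and 0.03.

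The targets were listed apart by arm. No arm was blocked in these libraries, so which arm drove a listed gene was not tested. Of 12 MyD88-arm targets (11 tested), 11 were higher with LPS, 9 with (GT)6 SWCNT and 8 with COOH SWCNT, and 0 were lower in these, while 8 were lower and 0 higher with DiBASC2. Their median log2 fold change was 5.59 with LPS, or 5.01 with Il12b, at 0 counts in every control library, set at a bound of 3 counts per library. It was 1.72 with (GT)6 SWCNT, 0.69 with COOH SWCNT and -0.36 with DiBASC2, and 1.55, 0.82 and -0.40 without Il12b. Of 12 TRIF-arm targets (11 tested), 6 were higher and 2 lower with LPS, 2 and 1 with (GT)6 SWCNT, 1 and 0 with COOH SWCNT and 0 and 1 with DiBASC2, with medians of 1.33, 0.03, 0.05 and 0.05. Cxcl10, an interferon-inducible chemokine, was the gene called in all 4 of these, at 5.03 ± 0.08, 1.63 ± 0.10, 1.11 ± 0.11 and -0.42 ± 0.13. The last call (edgeR, adjusted p = 0.0499) was lost without control replicate 1 or 2 or DiBASC2 replicate 1 or 2 and with the replicate block, only the 2 groups fitted or upper-quartile factors, where 1 target was called higher and 0 lower. The count with COOH SWCNT was 2 without control replicate 1 or the low-count filter. With Fura-2, 0 genes of any list were called (0.252% of all genes). With Di-2-ANEPEQ (3.08%), 2 receptor and chaperone genes and 2 MyD88-arm targets were lower and 1 inhibitor was higher. With AAV (5.00%), 1 receptor or chaperone gene was lower, and 1 inhibitor and 1 gene of the downstream list were higher. Each AAV count, and the inhibitor and MyD88-arm counts with Di-2-ANEPEQ, came to 0 in some alternatives.

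Ticam1 and the TRIF-arm targets can be read side by side. With (GT)6 SWCNT, Ticam1 was 1.97-fold over control. Of the 11 targets tested, 2 were higher and 1 lower there, beside 20.4% of all genes called (9.90% higher). With LPS, Ticam1 was 2.06-fold over control, and 6 targets were higher and 2 lower, beside 28.3% of all genes (13.8% higher). Directly, 7 of the 11 targets were lower and 0 higher with (GT)6 SWCNT than with LPS, where Ticam1 was not called different and 21.6% of all genes were called (11.9% lower). Cxcl10 was lower by 3.40 ± 0.07 on the log2 scale in that comparison (log2 -3.40; edgeR, adjusted p = 1.3e-30). A link between the mRNA level of Ticam1 and these targets was not tested.

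**Figure D4:**
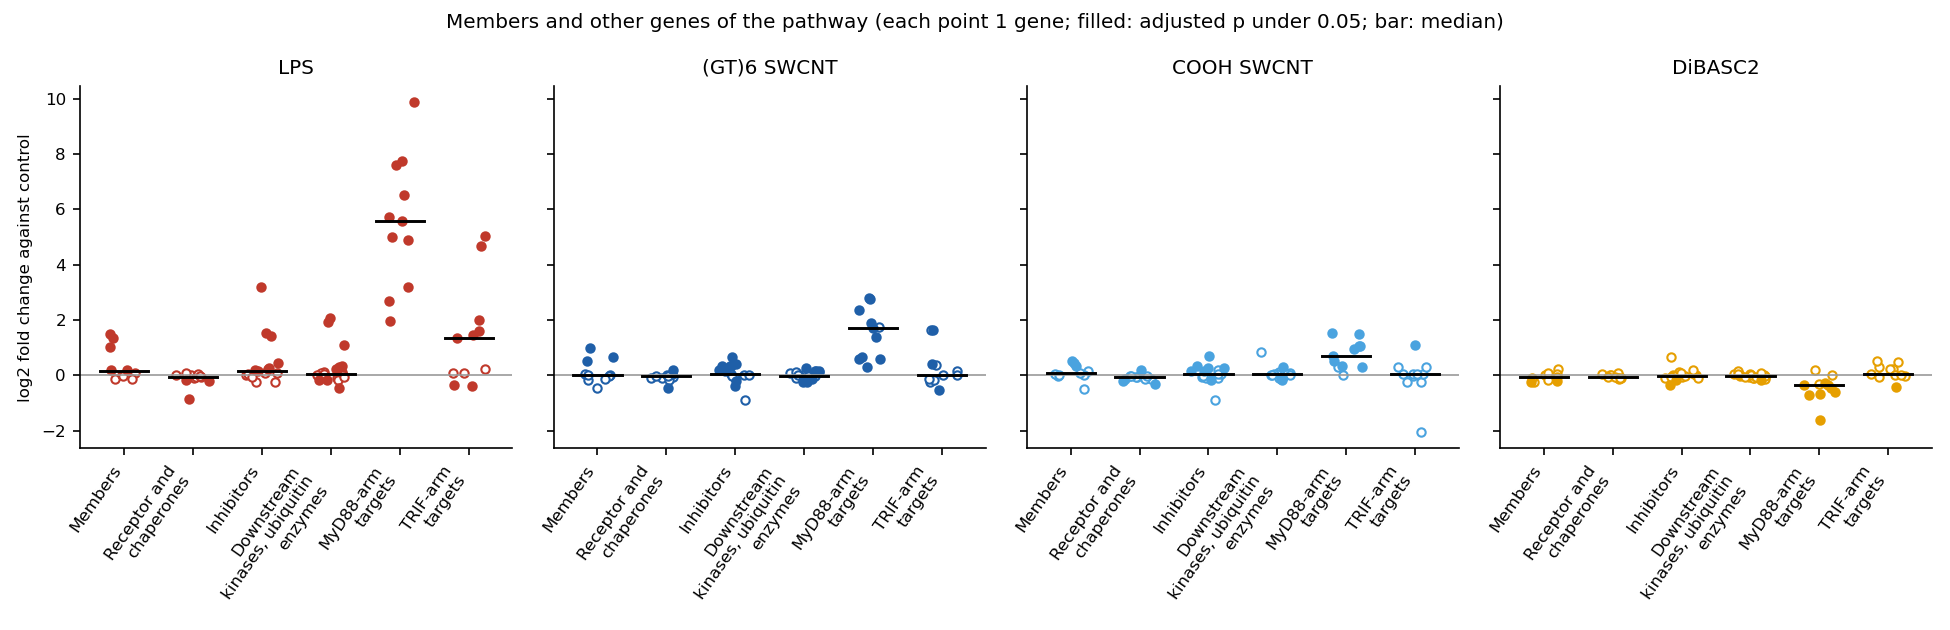
Log2 fold change against control (vertical axis) of the 10 genes (Members) and of the genes of 5 pathway lists in 4 treatments, with 1 point per gene tested, filled where the adjusted p was under 0.05, and a bar at the list's median. The MyD88-arm targets have a median of 5.59 with LPS, 1.72 with (GT)6 SWCNT, 0.69 with COOH SWCNT and -0.36 with DiBASC2, and the fitted values of Il12b, Csf3 and Ifnb1, at 0 or 1 count in each control library, depend on the prior count.

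For each of the 5 genes called against control, the 3 genes with the most similar log2 levels over the 24 libraries were named, as a description. Cd14 was most like Ptgs2 (Pearson r = 0.995), which makes prostaglandins, the endocytic gene Ehd1 (0.994) and Tnf (0.993). Irak2 was most like Mcl1, which protects cells from apoptosis (0.996), the adaptor gene Traf1 (0.996) and the growth factor gene Csf1 (0.995). Ticam1 was most like Btg2 (0.973), Swap70 (0.972) and Rsbn1 (0.972). Among the 21 libraries without LPS, r was 0.975, 0.982 and 0.974 for the Cd14 genes, 0.989, 0.988 and 0.991 for the Irak2 genes, and 0.960, 0.966 and 0.966 for the Ticam1 genes. Myd88 was most like Ube2f (0.923), Fas (0.918) and Ncoa5 (0.913), where r was 0.715, 0.695 and 0.723 without LPS, and Traf6 most like Med1, Csnk1g1 and Tmem248 (0.812, 0.808 and 0.795). The points share the group means and their libraries' scaling. After each group's mean was subtracted, r over the 24 libraries was much lower, at 0.539, 0.554 and 0.257 for the Cd14 genes in the order given, 0.226, 0.442 and 0.591 for the Irak2 genes, and 0.230, 0.350 and 0.263 for the Ticam1 genes. It was 0.419, 0.416 and 0.443 for the Myd88 genes and 0.611, 0.566 and 0.627 for the Traf6 genes.

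Rsbn1, one of the genes most like Ticam1, was at 61.3 ± 1.34 CPM in control, 116 ± 3.93 CPM with LPS, 118 ± 5.15 CPM with (GT)6 SWCNT and 88.1 ± 2.49 CPM with COOH SWCNT. Tnf, one of those most like Cd14, was at 35.6 ± 1.26, 1144 ± 53.8, 92.3 ± 0.442 and 68.3 ± 3.55 CPM in the same order. Both genes were lower than control with DiBASC2, at log2 differences of -0.25 ± 0.05 for Rsbn1 and -0.62 ± 0.06 for Tnf. Both were picked for their likeness over these same libraries, so their values describe that pick and give no separate support. Cd14 itself was called lower with DiBASC2, and Ticam1 was not (log2 -0.17 ± 0.09; edgeR, adjusted p = 0.29).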

How the data were processed

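Poly-A RNA of 24 SIM-A9 libraries was sequenced. The deposited table holds raw counts per gene, and reads were aligned with STAR 2.5.4b to GRCm38.p6, per the submitters' processing notes. The counting tool, its strand setting and its annotation are not given in the sources used here. Of 54838 identifiers, 53947 matched GENCODE M21 with their version, 54809 without it, and 29 did not match. From the counts, edgeR 4.0.16 (R 4.3.3, limma 3.58.1) fitted all 24 libraries with a mean per group (16 residual degrees of freedom), TMM factors and the default low-count filter, and a quasi-likelihood test was run for 10 contrasts over 13116 genes, with Benjamini-Hochberg adjustment in each. The common biological coefficient of variation was 4.12%. CPM are TMM-scaled, and levels between genes use GENCODE exon lengths. Standard errors were worked out from the test, as the size of the log2 fold change divided by the square root of the quasi-likelihood F. The 95% intervals use these standard errors, so both restate the test and rest on the spread in the fit of all 24 libraries. Alternatives were other scaling factors, filters, DESeq2 1.42.0, a replicate block, fits of only the groups compared, and leaving out each library. The test was also run on simulated data, in which every gene had the same biological coefficient of variation and sparse genes were not changed. Named beside the 10 genes and Tlr4 are, by rule, the 3 most correlated genes of each called member and at most the 2 highest and 2 lowest called genes of a list per treatment; Itgam and the genes with overlapping exons were named, and Rsbn1 and Tnf followed further, after values were seen. The members and lists were chosen with earlier results of these data known.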

Additional observations from a re-analysis of the deposited data

How the results depend on the processing

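Of 338 alternative values of the 26 called results of the 10 genes, 321 kept their call and direction, 17 lost the call and 0 changed direction; of 962 alternative values of uncalled ones, 16 became called. The 17 losses concern Traf6 and Ticam2 only. Leaving out each library in turn, 3 to 5 genes were called in COOH SWCNT against control, where 5 were called without COOH SWCNT replicate 3 (Ly96 lower and Tirap higher were added), and 3 to 4 in (GT)6 SWCNT against LPS, where 3 were called without (GT)6 SWCNT replicate 3. With upper-quartile factors 3 were called in (GT)6 SWCNT against LPS, and with only the 2 groups fitted 1 was called in Di-2-ANEPEQ against control (Ly96, lower); the causes were not tested. Counts over all genes moved by over 1.5 times in 4 comparisons. For Fura-2 the 33 genes called became 188 without the low-count filter, 86 with DESeq2, 80 with only the 2 groups fitted and 0 to 106 with any 1 of its 6 libraries left out. For Di-2-ANEPEQ 404 became 814 with only the 2 groups fitted and 120 and 165 when the control's replicate 1 and 3 were dropped, and 129 and 190 when its own replicate 2 and 3 were. For DiBASC2 717 became 333 without control replicate 1 and 459 without DiBASC2 replicate 3, and for AAV 656 became 157 to 278 without control replicate 1 or 3 or AAV replicate 2 or 3. With 62 to 194 counts per library for Ticam2 and 58 to 133 for Ly96, differences of the size seen for these genes are at the edge of what this depth shows.

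The replicate numbers showed no pairing of the libraries. Deviations of same-numbered libraries correlated with a median r of 0.00197 (-0.104 to 0.0696 over 84 pairs). Those of differently numbered libraries had a median r of 0.00189 (-0.118 to 0.115 over 168 pairs). With the replicate block, 5 genes were called in LPS, 3 in each SWCNT group, 2 in DiBASC2 and 4 in (GT)6 SWCNT against LPS, and Ticam2 was the call lost there (-0.47, adjusted p = 0.0566). Over all genes the block gave 3683 calls for LPS against 3717 without it. In each of the 10 contrasts, between 0 and 2 of the 3 libraries of the first group named correlated best with their own number.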
